A study of Mus musculus with 24 samples.

Results

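The 9 genes described here encode transporters that carry drugs, bile acids and other organic anions across the hepatocyte membranes. They were taken from the count table by symbol, and the table lists 55421 genes in all. The 4 uptake members were Slco1a1, Slco1a4, Slco1b2 and Slc22a7, and the 5 efflux members were Abcb1a, Abcc2, Abcc3, Abcc4 and Abcg2. RNA-seq was made from hepatocytes, the liver's parenchymal cells, which were isolated by collagenase perfusion and Percoll purification from 24 male mice, 6 in each of 4 groups. Young ND and young HFD mice were 6 months old by the sample labels and of substrain C57BL/6N, and old ND and old HFD mice were 24 months old and of substrain C57BL/6J. Age and substrain therefore cannot be told apart in any comparison of old with young mice. HFD was the diet 58y1 of TestDiet with 60% of energy from fat, ND is labelled as a Teklad global chow, and both were fed for 9 weeks. The study's own text gives other ages, which differ between its sections, and another normal diet, and it names the strain only as C57BL/6. The labels name no transgene and no further agent in any group. The comparisons address how expression of these transporters in hepatocytes differs with diet and with age together with substrain. Below, a comparison named by age is one in which substrain differs too.

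Hepatic drug disposition begins at the sinusoidal (blood-facing) membrane, where organic anion transporting polypeptides of the Slco family and organic anion transporters of the Slc22 family take compounds into the cell. After metabolism, ATP-driven pumps of the Abc family move compounds and their conjugates either across the canalicular membrane into bile or back across the basolateral membrane into blood. Several of these genes differ between male and female mouse liver under the control of growth hormone pulses, and many respond to nuclear receptors that sense bile acids and foreign compounds.

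Total counts per mouse ran from 9200332 to 22185069, and all 6 old HFD mice were below every mouse of the other groups. Levels are given as CPM, read counts scaled for library size and for composition between mice, and fold changes are on the log2 scale with their standard error (SE). A gene was called a DEG in a comparison when its adjusted p in edgeR's quasi-likelihood test was under 0.05. All 24 mice were in 1 model of group and batch, and the labels give the batch only as a number. All 9 members passed the count filter that left 13583 genes tested. Hepatocyte markers summed to between 58998 and 168615 CPM in every mouse, with old ND replicate 4 the lowest. Markers of other liver cells were low but uneven: the sum of 11 Kupffer cell markers was 1.88 to 83.0 CPM in young ND, 15.3 to 213 in young HFD, 53.2 to 1339 in old ND and 66.3 to 683 in old HFD. The 4 mice above 500 CPM were old ND replicates 3 and 4 and old HFD replicates 4 and 6. Old HFD replicate 2 stood farthest from its own group, with a mean correlation of 0.873 over all tested genes to the other old HFD mice, against 0.891 to 0.977 for the other 23 mice with their own groups. In whole-cell RNA, fewer cells of a type and less RNA per cell cannot be told apart.

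Across the comparisons, at most 1 of 9 members was a DEG where diet alone, or age with substrain, differed. Where all of these differed, 4 of 9 were. The share of all tested genes called was also highest there, at 30.2%. These counts depend on the fit. With only the mice compared, 4 members were called in old ND over young ND, beside 10.8% of tested genes. Old HFD over young ND then called 2, beside 17.4%. Leaving out 1 mouse gave 1 to 4 members in that comparison. The counts that follow are from the fit of all 24 mice. In young mice, 0 of 9 members were called between HFD and ND, where edgeR called 3.50% of all tested genes. At an unadjusted p under 0.05 there was 1, beside 2885 of all tested genes, and DESeq2 also called 0, beside 9.26%. In old mice HFD raised 1 of 9, Slco1b2, beside 3.01% of tested genes called in either direction and 1.37% called higher. Old ND was lower than young ND in 1 of 9, Abcg2, beside 8.50% called in either direction and 1.24% called lower. Age on HFD called 0 of 9, beside 2.24%, with 2 at an unadjusted p under 0.05, beside 2848 of all tested genes, and 0 by DESeq2, beside 6.34%. Between old HFD and young ND, 4 of 9 were called and all 4 were lower, Slco1a1, Abcc2, Abcc3 and Abcg2, beside 30.2% of tested genes called in either direction, 17.3% higher and 12.9% lower. The age by diet interaction called 0 members and 0 of all tested genes in edgeR (0%), where 1247 tested genes and 1 member, Abcg2, had an unadjusted p under 0.05, and DESeq2 called 4 genes and 0 members. These comparisons share groups, so their counts are not independent of each other.

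**Figure D1:**
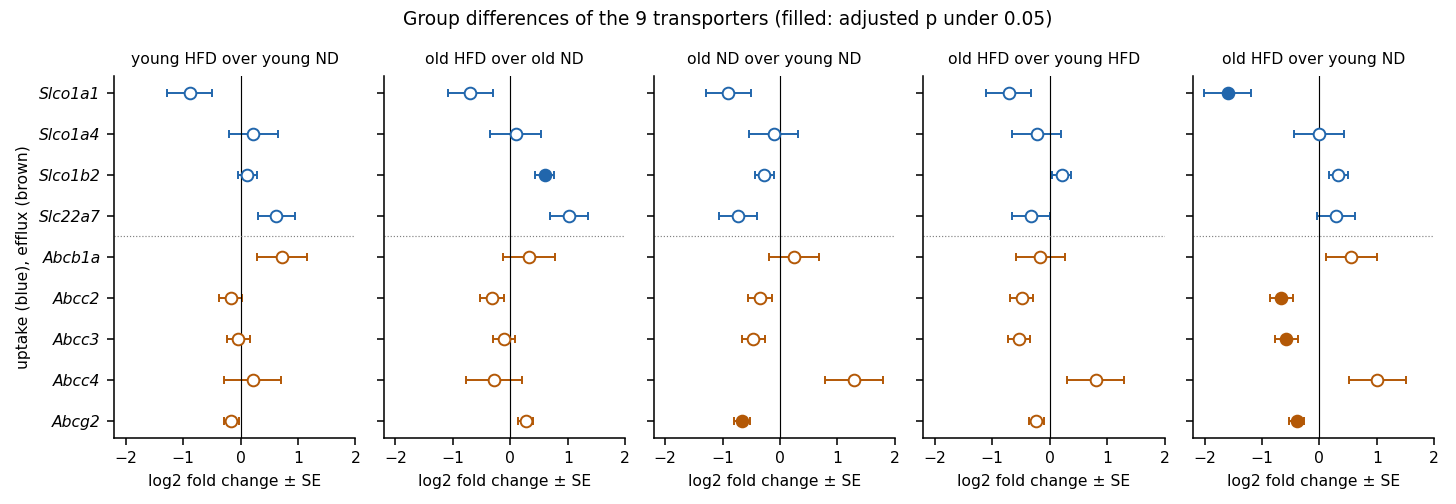
Log2 fold change of each transporter with its SE in the 5 pairwise comparisons, uptake members in blue and efflux members in brown, filled where the edgeR adjusted p is under 0.05. The 6 filled points are Slco1b2 in old HFD over old ND, Abcg2 in old ND over young ND, and Slco1a1, Abcc2, Abcc3 and Abcg2 in old HFD over young ND.

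The uptake members come first. Slco1a1 (ENSMUSG00000041698, GRCm38 chromosome 6 from 141907282 to 141946962, minus strand) encodes Oatp1a1, a sinusoidal carrier of organic anions and steroid conjugates that is higher in male than in female mouse liver. In young ND its level was 554 CPM at the lowest, 646 at the median and 804 at the highest. In young HFD these were 216, 354 and 550 CPM, in old ND 198, 379 and 509 CPM, and in old HFD 35.3, 189 and 498 CPM. Every young ND mouse was thus above every mouse of the other 3 groups, while those 3 groups overlapped each other. Such a lack of overlap with the first group lower held for 3.06% of tested genes in young HFD against young ND, for 1.72% in old ND against young ND and for 4.27% in old HFD against young ND. Old HFD mice had less Slco1a1 than young ND mice, by a log2 fold change of -1.60 (SE 0.40, edgeR adjusted p = 0.00583), lower in 6 of 6 mice. The fold change was -2.69 in batch 1 and -0.85 in batch 2, -1.33 without old HFD replicate 2 (edgeR adjusted p = 0.00736), and the call held in 24 of 24 fits that left out 1 mouse. The single steps did not pass: -0.88 for young HFD over young ND (SE 0.39, edgeR adjusted p = 0.187) and -0.90 for old ND over young ND (SE 0.39, edgeR adjusted p = 0.166). With only the mice of the 2 groups in the fit, both passed (edgeR adjusted p = 0.0151 and 0.0184). Within old mice the diet difference was -0.70 (SE 0.39, edgeR adjusted p = 0.302), -2.19 in batch 1 and 0.25 in batch 2.

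Slco1a4 (ENSMUSG00000030237, chromosome 6 from 141805440 to 141856199, minus strand), the neighbouring gene, encodes Oatp1a4, which carries bile acids and cardiac glycosides such as digoxin and is higher in female than in male mouse liver. It had 28.3 CPM at the lowest, 35.6 at the median and 47.8 at the highest in young ND. The corresponding values were 18.6, 47.0 and 68.6 CPM in young HFD, 7.84, 39.9 and 51.7 in old ND, and 15.1, 25.0 and 99.2 in old HFD. All 4 groups overlapped, and no comparison called it. Fold changes lay between -0.23 and 0.22 in the pairwise comparisons with SEs of 0.43 to 0.44, so each was smaller than its SE. Its spread between mice was smallest in young ND, where the SD of log2 CPM was 0.31, beside 0.94 for young HFD, 1.02 for old ND and 1.07 for old HFD.

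Within the young HFD group the levels of Slco1a1 and Slco1a4 took opposite orders. Replicates 1, 3 and 5 had 275, 236 and 216 CPM of Slco1a1 and 67.7, 67.4 and 68.6 CPM of Slco1a4. Replicates 2, 4 and 6 had 550, 439 and 433 CPM of Slco1a1 and 18.7, 26.6 and 18.6 CPM of Slco1a4. In this group the 3 mice with the lowest Slco1a1 were the 3 with the highest Slco1a4. Hsd3b5, a male-predominant steroid dehydrogenase and 1 of the 2 genes nearest to Slco1a1 in pattern, had 7.27 to 17.4 CPM in replicates 1, 3 and 5 and 118, 144 and 179 CPM in replicates 2, 4 and 6. Cyp2b9, a female-predominant P450, did not follow that order, with 79.3, 106 and 63.2 CPM in replicates 1, 3 and 5 and 156, 10.2 and 14.5 CPM in replicates 2, 4 and 6. The labels give no feature that sets these mice apart within the group, and both batches hold mice of either kind. Old HFD replicates 1 and 3 were also low in Slco1a1 (191 and 102 CPM) and high in Slco1a4 (62.4 and 99.2 CPM), but replicates 2 and 6, at 35.3 and 188 CPM of Slco1a1, had only 23.7 and 26.3 CPM of Slco1a4. The opposite order was not seen in every group: old ND replicates 3 and 4 were low in both, with 209 and 198 CPM of Slco1a1 and 19.8 and 7.84 CPM of Slco1a4. This pattern was noticed in the values and has no test.

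**Figure D2:**
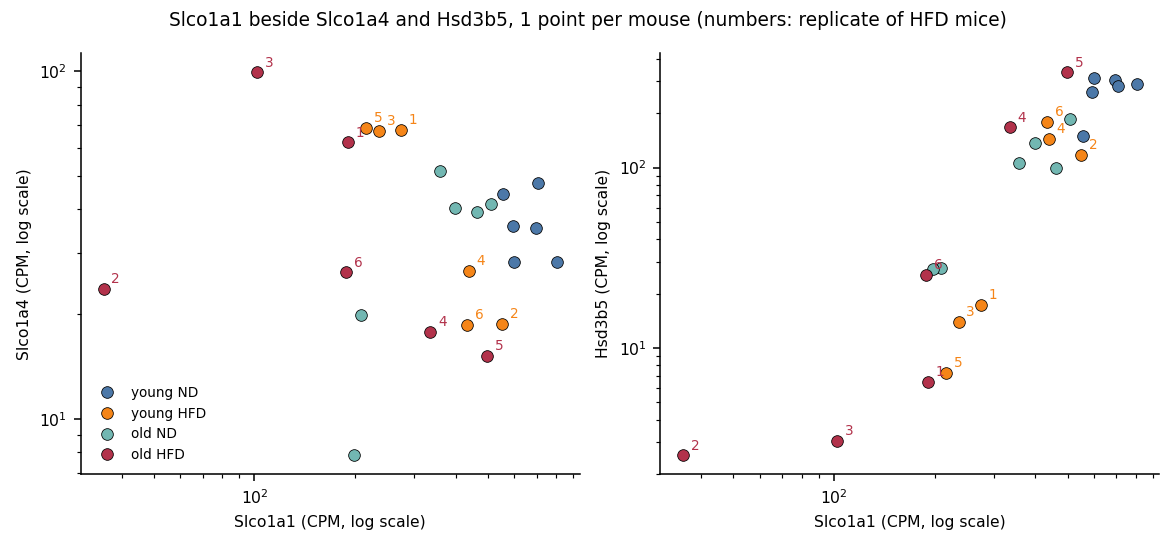
Slco1a4 (left) and Hsd3b5 (right) against Slco1a1, CPM on log axes, 1 point per mouse coloured by group, with the replicate number beside each HFD mouse. Young HFD replicates 1, 3 and 5 lie at 216 to 275 CPM of Slco1a1 and 67.4 to 68.6 CPM of Slco1a4, apart from replicates 2, 4 and 6 at 433 to 550 and 18.6 to 26.6 CPM.

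Slco1b2 (ENSMUSG00000030236, chromosome 6 from 141629518 to 141686646, plus strand) encodes Oatp1b2, a liver-specific sinusoidal carrier of bile acids, bilirubin conjugates and statins and the mouse counterpart of human OATP1B1 and OATP1B3. It had the highest FPKM of the 9 members in all 4 groups. Its level was 1205 CPM at the lowest, 1327 at the median and 1715 at the highest in young ND, and 1236, 1389 and 2010 CPM in young HFD. In old ND it was 914, 1157 and 1328 CPM, and in old HFD 1257, 1606 and 2790 CPM. The old groups overlapped by a narrow margin, since the lowest old HFD mouse was below the highest old ND mouse. With HFD, Slco1b2 in old mice was higher by a log2 fold change of 0.60 (SE 0.17, edgeR adjusted p = 0.0487), 0.56 in batch 1 and 0.58 in batch 2. The call rested on a value near the threshold: without old HFD replicate 2, the mouse at 2790 CPM, the fold change was 0.44 (edgeR adjusted p = 0.103), and 5 of 24 fits that left out 1 mouse kept it, with adjusted p from 0.0288 to 0.105. It was not called with the replicate block (0.60, edgeR adjusted p = 0.0513) or with no count filter (0.57, edgeR adjusted p = 0.0706), and was called by DESeq2 (0.62, adjusted p = 0.00661). In young mice the diet difference was 0.12 (SE 0.17, edgeR adjusted p = 0.745), and the difference between the 2 diet effects was not called (0.48, SE 0.24, edgeR adjusted p = 0.546).

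Promoter windows are shown for these 3 Slco genes because they lie side by side on chromosome 6 and differed in their calls. Those calls came from different comparisons. Slco1a1 was lower in old HFD over young ND, Slco1b2 was higher in old HFD over old ND, and Slco1a4 was not called. In old HFD over old ND Slco1a1 was not called (-0.70, edgeR adjusted p = 0.302). The Slco1b2 call held in 5 of 24 fits that left out 1 mouse. Each window is the RefSeq sequence of GRCm38.p6 from 250 bases before to 50 bases after the annotated start, read 5′ to 3′ on the gene's strand. Capitals mark matches, on either strand, to 5 short motifs: AGGTCA (a nuclear receptor hexamer), TTCNNNGAA (STAT), GCGTG (the core bound by the Ah receptor), GTTAAT (part of an HNF1 site) and TGACNNNGC (the antioxidant response core).
Slco1a1, chr6:141946913-141947212, minus strand: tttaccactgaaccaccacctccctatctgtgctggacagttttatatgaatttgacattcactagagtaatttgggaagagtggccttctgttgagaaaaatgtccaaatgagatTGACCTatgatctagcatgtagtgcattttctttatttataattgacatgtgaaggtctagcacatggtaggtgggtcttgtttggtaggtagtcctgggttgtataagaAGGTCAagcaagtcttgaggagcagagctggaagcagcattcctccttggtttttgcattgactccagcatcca
Slco1a4, chr6:141856171-141856470, minus strand: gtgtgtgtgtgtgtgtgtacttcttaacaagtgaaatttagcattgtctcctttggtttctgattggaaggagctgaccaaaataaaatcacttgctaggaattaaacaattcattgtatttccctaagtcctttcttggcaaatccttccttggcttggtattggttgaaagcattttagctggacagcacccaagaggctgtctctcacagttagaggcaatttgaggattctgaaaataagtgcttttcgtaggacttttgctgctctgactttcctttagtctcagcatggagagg
Slco1b2, chr6:141629268-141629567, plus strand: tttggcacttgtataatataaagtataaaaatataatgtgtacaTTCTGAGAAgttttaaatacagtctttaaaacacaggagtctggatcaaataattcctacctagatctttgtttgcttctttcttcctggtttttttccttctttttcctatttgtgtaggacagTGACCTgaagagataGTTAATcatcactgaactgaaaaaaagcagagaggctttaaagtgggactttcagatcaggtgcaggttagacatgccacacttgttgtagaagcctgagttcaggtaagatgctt
The Slco1a1 window held 2 matches to AGGTCA, the first base of each 134 and 24 bases before the start. The Slco1b2 window held 1 match each to TTCNNNGAA, AGGTCA and GTTAAT, which begin 206, 81 and 66 bases before the start. The Slco1a4 window held 0 matches to any of the 5. Among 32851 promoter windows of the same length, AGGTCA was in 16.3%, TTCNNNGAA in 8.3%, GCGTG in 32.4%, GTTAAT in 7.1% and TGACNNNGC in 12.4%, and none of the matches shown overlaps another. AGGTCA was also found in 2 of the 3 windows of Abcg2 and in that of Abcc2, and in none of the windows of Abcb1a and Abcc4. A match is a run of letters and not evidence of binding. The table holds 10 windows for 7 of the 9 members, and Abcc3 and Slc22a7 have no entry.

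Slc22a7 (ENSMUSG00000067144, chromosome 17 from 46432183 to 46438457, minus strand) encodes Oat2, a sinusoidal carrier of organic anions and nucleotides. It had 19.9 CPM at the lowest, 26.1 at the median and 35.7 at the highest in young ND, and 29.1, 43.3 and 48.8 CPM in young HFD. In old ND it had 9.55, 17.4 and 21.2 CPM, and in old HFD 4.53, 38.5 and 53.9 CPM. With HFD the medians were higher at both ages, but 2 old HFD mice, replicates 1 and 2 at 17.3 and 4.53 CPM, fell within or below the old ND range. The fold change of old HFD over old ND was 1.02 (SE 0.33, edgeR adjusted p = 0.0802), 0.24 in batch 1 and 1.54 in batch 2, where it was called (edgeR adjusted p = 0.041). Without old HFD replicate 2 it was 1.25 and passed (edgeR adjusted p = 0.0052), and DESeq2 also called it (1.03, adjusted p = 0.03). For young HFD over young ND the fold change was 0.62 (SE 0.33, edgeR adjusted p = 0.278), with 6 of 6 young HFD mice above the young ND median. Old ND was lower than young ND by a log2 fold change of -0.73 that did not pass (SE 0.33, edgeR adjusted p = 0.192). It passed without old HFD replicate 2 (-0.70, edgeR adjusted p = 0.0382), a mouse of neither group, which enters the fit through the shared spread, the batch term and the normalization.

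**Figure D3:**
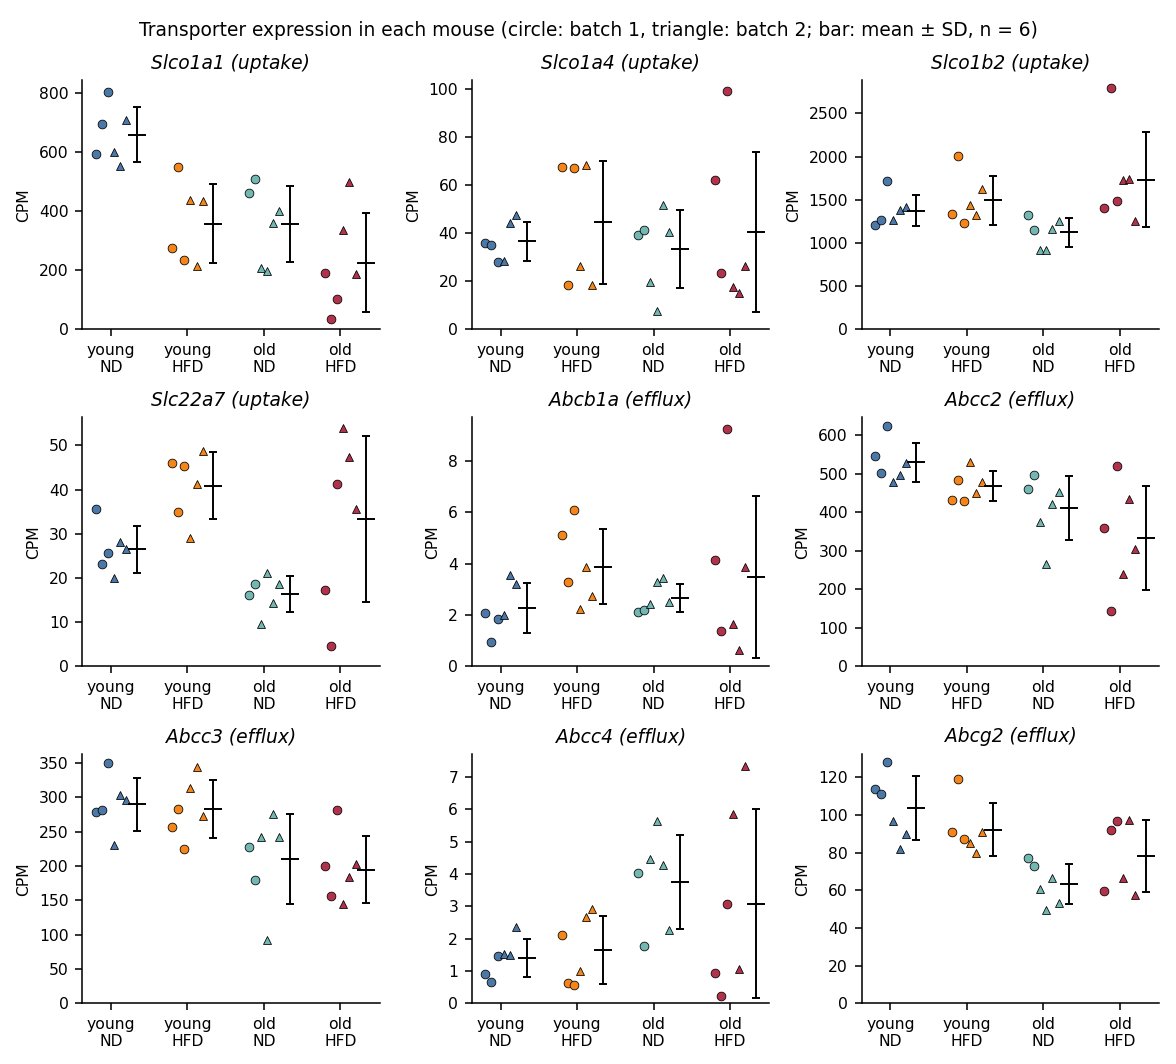
CPM of each transporter in every mouse, 1 panel per gene with its own axis from 0, circles for batch 1 and triangles for batch 2, with the mean and SD of each group at its right. Young ND mice lie above the other groups for Slco1a1 (554 to 804 CPM), young and old ND do not overlap for Abcg2, and old HFD mice spread widely for most genes.

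The efflux members follow, beginning with the canalicular pumps. Abcc2 (ENSMUSG00000025194, chromosome 19 from 43782192 to 43840740, plus strand) encodes Mrp2, which exports glucuronide and glutathione conjugates into bile. It had 480 CPM at the lowest, 515 at the median and 623 at the highest in young ND, and 431, 465 and 531 CPM in young HFD. In old ND it had 266, 438 and 496 CPM, and in old HFD 143, 333 and 521 CPM. The medians were lower in each successive group, with all groups overlapping. Old HFD was lower than young ND by a log2 fold change of -0.66 (SE 0.20, edgeR adjusted p = 0.0177), -0.73 in batch 1 and -0.61 in batch 2, and 23 of 24 fits that left out 1 mouse kept the call. The exception was the fit without old HFD replicate 4 (-0.56, edgeR adjusted p = 0.0553). The call was also lost with only the 2 groups in the fit (-0.63, edgeR adjusted p = 0.0793), and the fold change was -0.28 (edgeR adjusted p = 0.116) without the mice high in Kupffer cell markers and old HFD replicate 2. The 4 other pairwise comparisons gave -0.49 to -0.17 and none was called.

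Abcg2 (ENSMUSG00000029802, chromosome 6 from 58584523 to 58695676, plus strand) encodes Bcrp, a canalicular exporter of sulfate conjugates, urate and many drugs. It had 81.9 CPM at the lowest, 104 at the median and 128 at the highest in young ND, and 49.6, 63.5 and 77.0 CPM in old ND. These 2 groups did not overlap, which held for 1.72% of tested genes with old ND lower. The fold change of old ND over young ND was -0.66 (SE 0.13, edgeR adjusted p = 0.00445), -0.63 in batch 1 and -0.65 in batch 2, lower in 6 of 6 mice. All 24 fits that left out 1 mouse kept the call, with adjusted p from 0.00229 to 0.0149. It was not called in either batch alone (edgeR adjusted p = 0.309 and 0.205), nor without the 4 mice above 500 CPM of Kupffer cell markers (-0.60, edgeR adjusted p = 0.0599). Young HFD mice had 79.9, 89.0 and 119 CPM and old HFD mice 57.6, 79.3 and 97.6 CPM. Old HFD was lower than young ND by -0.39 (SE 0.13, edgeR adjusted p = 0.0277), and 19 of 24 fits that left out 1 mouse kept that call; it did not pass without young ND replicate 3 or 4 or old HFD replicate 1, 4 or 6, at -0.384 to -0.305. The diet difference was -0.16 in young and 0.27 in old mice, neither called, and the difference between them was 0.43 (SE 0.19, unadjusted p = 0.0306 and adjusted p = 0.531 in edgeR's quasi-likelihood test).

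Abcb1a (ENSMUSG00000040584, chromosome 5 from 8660077 to 8748575, plus strand) encodes P-glycoprotein, the canalicular exporter of hydrophobic drugs. Its level was low, with 6 to 115 counts per mouse. It had 0.940 CPM at the lowest, 2.05 at the median and 3.55 at the highest in young ND, and 2.24, 3.58 and 6.09 CPM in young HFD. In old ND it had 2.12, 2.48 and 3.43 CPM, and in old HFD 0.644, 2.77 and 9.26 CPM. All groups overlapped and no comparison called it, with the fold change of young HFD over young ND at 0.72 (SE 0.44, edgeR adjusted p = 0.364), 1.55 in batch 1 and 0.04 in batch 2. Its 3 highest values, 9.26 CPM in old HFD replicate 3 and 6.09 and 5.11 CPM in young HFD replicates 3 and 1, were in mice with at least 67.4 CPM of Slco1a4. Of its 50-base transcript windows, 17.6% also occur in transcripts of Abcb1b or Abcb4, and 10.1% of its exon bases overlap an antisense gene, so its counts may be shared where reads were not assigned by strand. Abcb1b, the second P-glycoprotein gene of the mouse, had 0.804, 1.33 and 2.54 CPM in young ND and 0.0564, 0.425 and 0.848 CPM in young HFD, with a fold change of -1.72 (SE 0.56, edgeR adjusted p = 0.0787), so the fold changes of this pair pointed in opposite directions and neither was called.

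Abcc3 and Abcc4 encode the basolateral exporters Mrp3 and Mrp4, which return conjugates and bile acids to the blood. Abcc3 (ENSMUSG00000020865, chromosome 11 from 94343295 to 94392997, minus strand) had 231 CPM at the lowest, 289 at the median and 350 at the highest in young ND, and 225, 279 and 344 CPM in young HFD. In old ND it had 92.9, 235 and 275 CPM, and in old HFD 145, 192 and 281 CPM. The diets overlapped almost entirely in young mice, and the old groups reached lower. Old HFD was lower than young ND by a log2 fold change of -0.58 (SE 0.20, edgeR adjusted p = 0.0291), -0.54 in batch 1 and -0.64 in batch 2. The call was kept in 20 of 24 fits that left out 1 mouse; it did not pass without young ND replicate 3 or old HFD replicate 2, 4 or 5, at -0.525 to -0.471. For old HFD over young HFD and old ND over young ND the fold changes were -0.54 and -0.46 and neither passed (edgeR adjusted p = 0.127 and 0.154).

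Abcc4 (ENSMUSG00000032849, chromosome 14 from 118482692 to 118706219, minus strand) was the member of lowest FPKM in all 4 groups, with 3 to 102 counts per mouse. By CPM per kilobase of exon, Abcb1a was lower than Abcc4 in old ND (0.485 against 0.585). Abcc4 had 0.671 CPM at the lowest, 1.47 at the median and 2.35 at the highest in young ND, and 0.564, 1.57 and 2.91 CPM in young HFD. In old ND it had 1.76, 4.16 and 5.64 CPM, and in old HFD 0.230, 2.07 and 7.34 CPM. Old ND had the highest median, with 2 of its mice inside the range of young ND. The fold change of old ND over young ND was 1.29 (SE 0.50, edgeR adjusted p = 0.112), 1.53 in batch 1 and 1.20 in batch 2, and did not pass in any of the 24 fits that left out 1 mouse. It passed with only the 2 groups in the fit (1.36, edgeR adjusted p = 0.0189) and with no count filter (1.27, edgeR adjusted p = 0.016). The 4 mice with over 500 CPM of Kupffer cell markers had 4.45, 5.64, 5.85 and 7.34 CPM of Abcc4, which are the highest 4 of the 24 values. The genes nearest to it in pattern were Clec9a, which encodes a lectin of dendritic cells, and Ppp1r16b, with correlations of 0.864 and 0.86. Without those 4 mice the fold change of old ND over young ND was 1.20 (edgeR adjusted p = 0.293), against 1.29 with them.

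**Figure D4:**
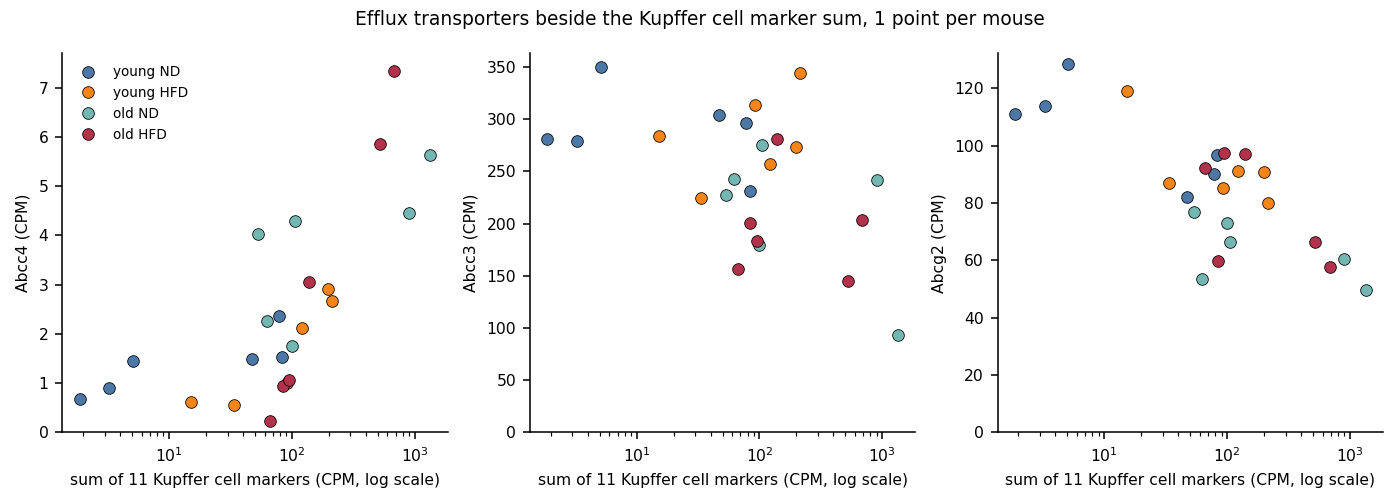
Abcc4, Abcc3 and Abcg2 in CPM against the sum of 11 Kupffer cell markers in CPM on a log axis, 1 point per mouse coloured by group. The 4 mice above 500 CPM of markers hold the 4 highest Abcc4 values (4.45 to 7.34 CPM) and include the lowest Abcc3 (92.9 CPM) and Abcg2 (49.6 CPM) values, both in old ND replicate 4.

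Kupffer cell markers were higher in both old groups than in young ND, beside these results. Of the 11 markers tested, 10 were called higher and 0 lower in old ND over young ND, and 9 higher and 0 lower in old HFD over young ND; among 12 sinusoidal endothelial markers, 7 and 11 were called higher in the same comparisons, and among 10 stellate cell markers 9 and 8. In old HFD over young HFD, 0 markers of these 3 lists were called, and the Kupffer median log2 fold change was 0.96. In young HFD over young ND 1 Kupffer, 1 endothelial and 3 stellate markers were called higher, with list medians of 2.10, 1.40 and 1.57. Each Kupffer marker was detected in at least 1 mouse of every group. Leaving out the 4 mice above 500 CPM of Kupffer markers left 4 old ND and 4 old HFD mice. Then 0 Kupffer, 0 endothelial and 2 stellate markers were called higher in old ND over young ND. In old HFD over young ND 5, 1 and 2 were. The 4 mice were picked by their Kupffer marker sum after seeing the data, so a fall in Kupffer calls was set by the choice. With fewer mice, the parts of the markers and of lower power in a lost call cannot be told apart. In that fit 94 of all tested genes were called in old ND over young ND in place of 1155, and Abcg2 was not among them. In old HFD over young ND, the same fit kept Slco1a1 (-1.71, edgeR adjusted p = 0.0147) and Abcc3 (-0.48, edgeR adjusted p = 0.0431), but not Abcc2 (-0.54, edgeR adjusted p = 0.0833) or Abcg2 (-0.30, edgeR adjusted p = 0.146). When old HFD replicate 2 was also left out, 3 old HFD mice remained. Slco1a1 was then the only member still called in old HFD over young ND (-1.34, edgeR adjusted p = 0.023). Abcg2 was called again in old ND over young ND (-0.60, edgeR adjusted p = 0.0336). The same fit called 2 of 9 members in young HFD over young ND, beside 2372 of 13915 tested genes, Slco1a1 lower (-0.87, edgeR adjusted p = 0.0401) and Slc22a7 higher (0.64, edgeR adjusted p = 0.0272). In that comparison it also called higher 7 of 11 Kupffer, 12 of 12 endothelial and 6 of 10 stellate markers, and their part in these values was not tested. For old HFD over old ND the fit called Slc22a7 (1.04, edgeR adjusted p = 0.0404) and not Slco1b2, at 0.32 (edgeR adjusted p = 0.309), which was at 0.56 (edgeR adjusted p = 0.0979) without the 4 mice alone. Without those 4 alone Slc22a7 was not called either, at 0.69 (edgeR adjusted p = 0.316).

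Uptake and efflux members were then set side by side in each mouse, as the mean log2 CPM over the 4 uptake and the 5 efflux genes. These means are a description without a test. For the uptake genes, young mice averaged 7.41 ± 0.13 (SD, n = 6) on ND and 7.38 ± 0.11 on HFD, and old mice 6.84 ± 0.45 on ND and 6.95 ± 0.56 on HFD. The efflux mean was 5.11 ± 0.23, 5.20 ± 0.18, 5.11 ± 0.18 and 4.90 ± 0.60 in the same order. Uptake minus efflux gave 2.30 ± 0.18 and 2.17 ± 0.17 for young mice on ND and HFD, and 1.72 ± 0.45 and 2.05 ± 0.47 for old mice, which varied more from mouse to mouse. Old ND replicates 3 and 4, both high in Kupffer cell markers, had 1.09 and 1.32, and the other 4 old ND mice averaged 1.98 ± 0.24. Without old HFD replicates 4 and 6 the old HFD mean was 2.08 ± 0.51. The single-mouse extremes were 1.09 in old ND replicate 3 and 2.75 in old HFD replicate 5. The classes did not move as units: in old HFD over young ND the uptake fold changes ran from -1.60 for Slco1a1 to 0.33 for Slco1b2, and the efflux fold changes from -0.66 for Abcc2 to 1.01 for Abcc4, which was not called. Abcc4 there was 0.15 without the mice high in Kupffer cell markers, 0.47 with old HFD replicate 2 also left out, and 1.25 with that replicate alone left out (edgeR adjusted p = 0.041). By count, 1 of 4 uptake and 3 of 5 efflux members were called lower there, beside 12.9% of all tested genes, with medians of 0.14 and -0.39 beside 0.04 over all tested genes. Without the mice high in Kupffer cell markers 1 of 4 and 1 of 5 were called lower, beside 8.55%, and 1 of 4 and 0 of 5 with old HFD replicate 2 also left out, beside 5.69%. In summed CPM, which Slco1b2 dominates, uptake genes took 69.3% ± 1.47 (SD, n = 6) of the 9-gene total in young mice on ND and 69.2% ± 3.34 on HFD. For old mice the shares were 68.8% ± 3.57 on ND and 76.2% ± 7.94 on HFD, with 87.9% in old HFD replicate 2.

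**Figure D5:**
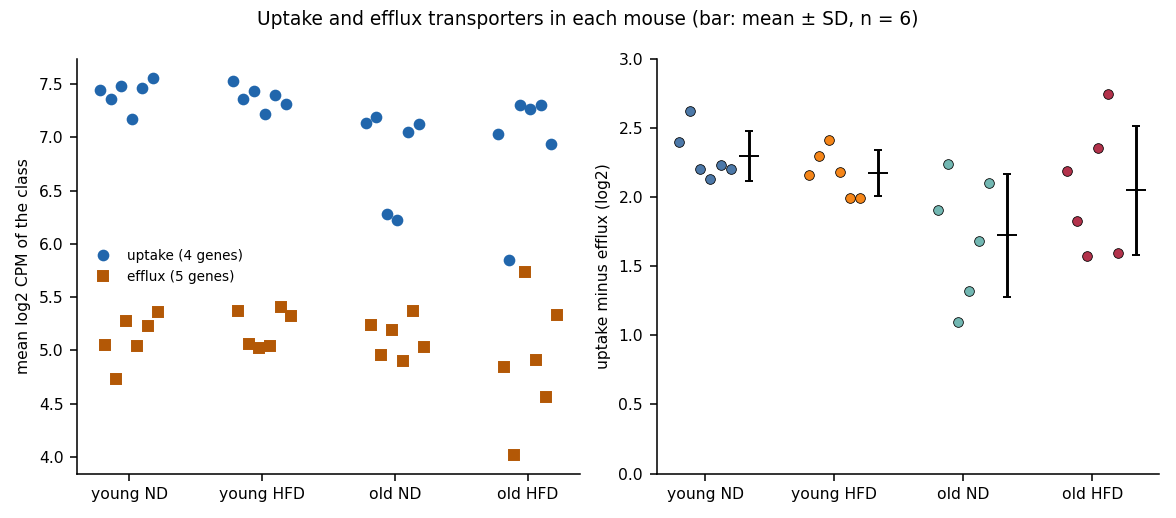
Left, mean log2 CPM of the 4 uptake genes (blue circles) and the 5 efflux genes (brown squares) in each mouse; right, their difference in log2 units with the mean and SD of each group. The difference is 2.30 ± 0.18 in young ND and 1.72 ± 0.45 in old ND, and the uptake mean is lowest at 5.85 in old HFD replicate 2.

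Levels of different genes are compared per length, in the deposited batch-adjusted FPKM. In young ND the order was Slco1b2 at 24.4 ± 3.03 FPKM (SD, n = 6), Slco1a1 at 16.7 ± 3.08, Abcc2 at 9.04 ± 0.739, Abcc3 at 5.92 ± 0.804, Slc22a7 at 4.68 ± 1.23, Abcg2 at 0.915 ± 0.061, Slco1a4 at 0.730 ± 0.282, Abcb1a at 0.0276 ± 0.0137 and Abcc4 at 0.00622 ± 0.00197. In FPKM, only the neighbours Abcg2 and Slco1a4 differed in that group by less than the larger of their SDs. By CPM per kilobase of annotated exon, Slc22a7 at 12.6 ± 2.54 and Abcg2 at 12.7 ± 2.10 were level there. In old HFD, Slco1b2 stayed first at 30.8 ± 8.76 FPKM, while Slc22a7 at 6.03 ± 2.92, Slco1a1 at 5.99 ± 4.26, Abcc2 at 5.82 ± 2.14 and Abcc3 at 4.16 ± 1.14 each differed from the next by less than the larger SD. By FPKM Slco1a1 was thus at rank 2 in young ND and at rank 3 in old HFD, close to those 3 genes. By CPM per kilobase of annotated exon it was at rank 2 in all 4 groups, with 42.7 ± 31.8 in old HFD, and Slc22a7 was at rank 5 there with 15.9 ± 8.96, so the place of both genes in the old HFD order differs between these measures, which differ in counting, batch adjustment and length.

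For each member, the tested genes most like it over the 24 mice were found by the correlation of log2 CPM with batch means removed, given here as a description. Slco1a1 was nearest to Atg2b (0.916) and Hsd3b5 (0.915), Slco1a4 to Gas2 (0.837) and Atp1b1 (0.827), Slco1b2 to Cox16 (0.882) and Ndufb3 (0.855), and Slc22a7 to Tmem260 (0.803) and Tpcn1 (0.801). Abcc2 was nearest to Igf2r (0.964) and Nfatc3 (0.953), Abcc3 to Mttp (0.902) and Aplp2 (0.881), Abcg2 to Mup22 (0.847) and Dbt (0.816), and Abcb1a to Tcn2 (0.841) and 5330417C22Rik (0.84). Old HFD replicate 2 was the lowest mouse for Slco1a1, Slc22a7, Abcc2 and Abcc4 and the highest for Slco1b2, so it weighs on each of these values.

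The other transporters of a wider list moved in both directions. Of 26 further uptake genes, 20 were tested. Old HFD over young ND called 6 higher and 3 lower, beside 17.3% higher and 12.9% lower over all tested genes. Diet in young mice called 2 and 1 (1.91% and 1.59% of all tested genes) and diet in old mice 0 and 1 (1.37% and 1.64%). Age on ND called 3 and 0 (7.26% and 1.24%) and age on HFD 1 and 0 (1.82% and 0.42%). Slco2a1, the prostaglandin transporter, was at 113 ± 8.92 CPM (SD, n = 6) on ND and 49.1 ± 10.8 on HFD in young mice, and at 103 ± 16.1 and 46.9 ± 19.1 in old mice, lower with HFD at both ages (fold changes -1.20 and -1.12, edgeR adjusted p = 0.00436 and 0.0108). Slc22a3, the organic cation transporter Oct3, was higher in old HFD over young ND (2.16, edgeR adjusted p = 0.000112), at 13.1 ± 4.51 against 2.97 ± 0.99 CPM. It was higher in old than in young mice on both diets, ND and HFD (1.15 and 1.19, edgeR adjusted p = 0.0236 and 0.042). Slc22a27 was higher in young HFD, old ND and old HFD than in young ND (2.66, 2.29 and 2.76, edgeR adjusted p = 0.0103, 0.0127 and 0.00154). Of 18 further efflux genes, 14 were tested, and old HFD over young ND called 4 higher and 3 lower, beside the same 17.3% and 12.9%. Abcb11, the bile salt export pump, was at 974 ± 91.9 CPM (SD, n = 6) on ND and 643 ± 75.3 on HFD in young mice and at 683 ± 140 and 529 ± 110 in old mice, so it was lower than young ND in the other 3 groups (edgeR adjusted p = 0.0313, 0.0414 and 0.000435). Abcc1, which encodes Mrp1, was higher in old ND and old HFD (2.97 and 3.01, edgeR adjusted p = 0.0106 and 0.00375), at 0.268 CPM in young ND and 2.16 and 2.05 CPM in the old groups. The highest 4 of its 24 values, 2.92 to 4.98 CPM, were in the 4 mice over 500 CPM of Kupffer cell markers, and without those mice neither call held (2.20 and 2.28, edgeR adjusted p = 0.194 and 0.056). In the same fit old HFD over young ND called 5 higher and 3 lower of the further uptake genes and 0 higher and 3 lower of the further efflux genes, beside 10.6% higher and 8.55% lower over all genes. With old HFD replicate 2 also left out these were 4 and 1 uptake and 1 and 2 efflux genes, beside 5.76% and 5.69%. Without the 4 mice alone, the calls of Slco2a1 were kept, and those of Slc22a3, Slc22a27 and Abcb11 in old HFD over young ND, but not those of Slc22a3, Slc22a27 and Abcb11 in old ND over young ND (1.02, 1.94 and -0.37, edgeR adjusted p = 0.148, 0.118 and 0.248, against 1.15, 2.29 and -0.50 with all mice) or of Slc22a3 in old HFD over young HFD (1.28, edgeR adjusted p = 0.0646, against 1.19).

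Regulators and sex-linked liver genes were read for the same mice. Of 21 transporter regulators 20 were tested, and in old HFD over young ND 0 were called higher and 7 lower, where 12.9% of all tested genes were lower. Without the 4 mice high in Kupffer cell markers 1 was called higher and 4 lower, beside 8.55% of all genes lower, and Hnf4a, Nr1i2 and Stat5b were among the 4. With old HFD replicate 2 also left out 0 were called higher and 2 lower, Hnf4a at -0.36 (edgeR adjusted p = 0.0184) and Nr1i2 at -0.42 (edgeR adjusted p = 0.0295), and Stat5b at -0.43 was not called (edgeR adjusted p = 0.053). The 7 included Hnf4a and Nr1i2, nuclear receptors of the hepatocyte and of the drug response, with Hnf4a also on the hepatocyte marker list. Hnf4a had 378 ± 137 CPM against 625 ± 48.3 (log2 fold change -0.73, edgeR adjusted p = 0.00534) and Nr1i2 49.3 ± 14.5 against 67.0 ± 8.43 (-0.45, edgeR adjusted p = 0.0213). Stat5b, which carries the growth hormone signal, had 38.7 ± 8.41 against 58.2 ± 7.37 CPM (-0.58, edgeR adjusted p = 0.00556). Young HFD over young ND called 1 regulator higher and 3 lower without the mice high in Kupffer cell markers and old HFD replicate 2. All tested genes called lower there were 7.50%. Hnf4a at -0.43 (edgeR adjusted p = 0.00126) and Stat5b at -0.37 (edgeR adjusted p = 0.031) were called, and Nr1i2 at -0.13 was not (edgeR adjusted p = 0.354). In the fit of all mice, at most 1 regulator was called in each comparison other than old HFD over young ND. Of 12 male-predominant liver genes, all tested, 4 were called lower against young ND in each of young HFD, old ND and old HFD, and 0, 1 and 1 higher, beside 3.50%, 8.50% and 30.2% of all tested genes called in either direction. Without the mice high in Kupffer cell markers 5, 1 and 4 were called lower and 0, 0 and 1 higher. In that fit 7.90%, 0.692% and 19.2% of all tested genes were called in either direction. Elovl3, an elongase of very long chain fatty acids, was 755 ± 230 CPM in young ND and 218 ± 118, 265 ± 75.1 and 212 ± 180 CPM in those groups (edgeR adjusted p = 0.0251, 0.0285 and 0.00377), and the old ND call did not hold without the mice high in Kupffer cell markers (-1.38, edgeR adjusted p = 0.226). Of 15 female-predominant genes 6 were tested, and 5, 3 and 5 were called higher, 0 lower, and without those mice 5, 1 and 5 higher, beside the same shares in each fit. Cyp2b9 was 0.303 ± 0.3 CPM in young ND and 71.5 ± 55.6, 8.37 ± 6.75 and 68.1 ± 47.0 CPM in the same order (edgeR adjusted p = 5.75e-06, 0.00177 and 4.08e-06). Slco1a1, itself known as male-predominant, had medians of 354, 379 and 189 CPM in those 3 groups against 646 CPM in young ND and was called in old HFD, whereas Slco1a4, known as female-predominant, was called in none of the 3.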

How the data were processed

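Polyadenylated RNA of hepatocytes from 24 mice was sequenced, with group, replicate and batch read from the sample labels. The authors deposited raw gene counts, whole numbers that HTSeq 0.11.2 gave after 2-pass STAR 2.7.3a alignment to mm10 (Gencode) and SAMtools filtering. The authors also deposited FPKM values from CuffLinks, adjusted between batches with ComBat; the submitters' notes further name FastQC 0.11.8. How strand and duplicates were handled is not given in the sources used here. Counts come from amplified reads without molecular identifiers, so low counts such as those of Abcc4 carry counting error beyond the total depth of 9200332 to 22185069 per mouse. 0 columns had no matching sample.

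Counts were tested in edgeR 4.0.16 (R 4.3.3) with TMM normalization, filterByExpr by group, group and batch terms, and its quasi-likelihood F test, adjusted by Benjamini-Hochberg over all 13583 tested genes. The SE is the log2 fold change divided by the square root of F. CPM used TMM library sizes, and log2 CPM a prior count of 2. The test was run on simulated counts without a batch effect and with the same spread in all groups. It therefore does not cover the unequal spread between groups seen here. The 9 members, the gene lists and the motifs were chosen with earlier results of these data known. Besides the members, the text names called genes of each list, at most 4 per list and comparison by smallest adjusted p, Abcb1b, and the 2 tested genes most correlated with each member. Cell type markers were lists of 9 to 12 genes. Gene positions are from GENCODE of GRCm38, the mm10 build. Promoter windows are from RefSeq GRCm38.p6. Alternatives were DESeq2 1.42.0, RLE, no filter, no batch, the replicate number as a block, robust dispersion, only the mice compared, each batch alone, limma 3.58.1 on log2(FPKM + 1) and log2(FPKM + 0.1), and leaving out each mouse. Leaving out mice high in Kupffer cell markers, alone or with old HFD replicate 2, was added after seeing the data. Descriptions and figures used Python 3.11.15, numpy 2.4.6, pandas 2.3.3 and matplotlib 3.10.9.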

Additional observations from a re-analysis of the deposited data

Results flagged for a closer look

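Among 40 sets of 6 mice, the 9 transporters and the uptake minus efflux mean in each group, 1 mouse lay far from the rest of its group by Dixon's test on log2 CPM, where chance flags about 1 in 20 sets. Young HFD replicate 2 had 119 CPM of Abcg2, with the other 5 young HFD mice between 79.9 and 91.1 CPM, a gap of 0.673 of the whole range. The same mouse had the lowest Kupffer cell marker sum of its group, at 15.3 CPM, and the part of that in the Abcg2 value was not tested. No age by diet interaction of a member passed the threshold.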

How the results depend on the processing

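The count of members called in each comparison moved with the settings. Beside each count stands the share of all genes tested in that setting that were called. For diet in young mice it was 0 with all 24 mice, group and batch in the model (3.50%), and 2 with no count filter (4.56%), with only the mice compared (18.6%), and without the mice high in Kupffer cell markers and old HFD replicate 2 (2372 of 13915 genes). For diet in old mice it was 1 (3.01%), 2 with DESeq2 (Slco1b2 and Slc22a7, 9.17%) and 2 with no count filter (Slco1a1 and Slc22a7, not Slco1b2, 3.43%). It was 0 without batch (1.96%), with the replicate block (3.28%), with only the mice compared (0.119%), in batch 1 alone (0.111%), with log2(FPKM + 1) (3.18%) or without the mice high in Kupffer cell markers (2.95%). Age on ND gave 1 (8.50%), 4 with no count filter (6.35%) or only the mice compared (10.8%), and 0 in batch 1 (0.687%) or batch 2 alone (0.0140%) or without the mice high in Kupffer cell markers (0.692%). Age on HFD gave 0 (2.24%), and 2 with no count filter (3.82%). Age and diet together gave 4 (30.2%), 2 with only the mice compared (17.4%) or without the mice high in Kupffer cell markers (19.2%), 1 in batch 1 alone (6.79%) or when old HFD replicate 2 was also left out (11.4%), and 0 in batch 2 alone (4.33%). Leaving out each mouse gave 0 to 2 members for diet in old mice, 1 to 2 for age on ND, 0 to 2 for age on HFD and 1 to 4 for age and diet together. In batch 2 alone the 1 member called for diet in old mice was Slc22a7, not Slco1b2. The cause of these moves was not tested.

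Changes of direction occurred in values that were not called. In batch 1 alone, Slco1a4 turned to 0.30 for age on ND, 0.25 for age on HFD and 0.87 for age and diet together, Slc22a7 to -0.44 for age and diet together, Abcb1a to 0.0105 for age on HFD and Abcc3 to 0.0204 for diet in old mice. In batch 2 alone, Slco1a1 turned to 0.25 for diet in old mice, Slco1a4 to -0.06 for diet in young and -0.59 for diet in old mice, Slc22a7 to 0.19 for age on HFD, Abcb1a to -0.46 for diet in old mice, -0.0168 for age on ND and -0.48 for age and diet together, Abcc3 to 0.19 for diet in young mice and Abcc4 to 0.22 for diet in old mice. Slco1a4 in old HFD over young ND, at -0.01, became 0.0313 with RLE, 0.0224 with DESeq2, 0.15 without batch and 0.0036 with log2(FPKM + 1), and its diet difference in old mice was -0.0764 with only the mice compared. Without the mice high in Kupffer cell markers Slco1a4 was 0.25, 0.0685 and 0.33 for age on ND, age on HFD and age and diet together, and Abcc4 -0.0918 for age on HFD. With old HFD replicate 2 also left out, the 3 Slco1a4 values were 0.247, 0.31 and 0.57 and Abcb1a was 0.22 for age on HFD. Leaving out each mouse gave Slco1a4 -0.0847 to 0.39 for diet in young mice, -0.25 to 0.31 for diet in old mice, -0.36 to 0.10 for age on ND, -0.62 to 0.0496 for age on HFD and -0.36 to 0.20 for age and diet together. It gave Abcb1a -0.14 to 0.61 for diet in old mice and -0.73 to 0.0566 for age on HFD, Abcc3 -0.0999 to 0.0259 for diet in young mice, and Abcc4 -0.0746 to 0.38 for diet in young mice.

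As log2 of summed CPM, uptake over efflux differed by -0.026 for age on ND, where the mean log2 CPM gave -0.58, and by 0.57 for age on HFD and 0.57 for age and diet together, where it gave -0.12 and -0.25. By CPM per kilobase of exon, 7 of 9 members kept their FPKM rank in young ND, 5 each in young HFD and old ND, and 3 in old HFD. Over all tested genes, the settings moved the calls from 475 to between 9 and 2372 for diet in young mice, from 409 to between 15 and 1123 for diet in old mice, from 1155 to between 2 and 2053 for age on ND, from 304 to between 0 and 1235 for age on HFD and from 4100 to between 617 and 4722 for age and diet together. The interaction gave 0 to 587, the highest with no count filter.

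The groups share replicate numbers, which belong to different mice; deviations of same-numbered mice had a mean correlation of 0.182 over 36 pairs, from -0.32 to 0.551, and of -0.0467 with batch means removed. With the replicate block, 0 members were called for diet in old mice and 283 of all genes for diet in young mice, and no other call of a member changed.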
